A study of Xenopus laevis with 4 samples.

Results

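T-box genes encode transcription factors that share a DNA-binding domain named after the founding gene, brachyury (t). In the Xenopus gastrula, eomes is switched on early by Nodal signalling and maternal T-box protein and acts in mesoderm and endoderm formation. Brachyury is expressed in a ring of mesoderm around the blastopore, where it is maintained by a loop with fibroblast growth factor (FGF) signalling and is needed for posterior mesoderm and the notochord. The tbx1 and tbx2 genes are better known from later stages, tbx1 in pharyngeal development and tbx2 as a transcriptional repressor in sensory organs and heart.

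The genes described here are t, eomes, tbx1, tbx2, tbx3, tbx5 and tbx6, taken as every row of the gene table whose symbol, in lower case and without a final .L or .S, equals one of these 7 symbols. The suffixes stand for the long (L) and short (S) copy of a gene in the allotetraploid genome of X. laevis, called homeologs. The rule found 8 of 45098 gene entries, an L and an S entry each for t, eomes, tbx1 and tbx2. The other 3 symbols, tbx3, tbx5 and tbx6, matched no entry and were not analysed here.

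RNA was sequenced from X. laevis embryos labelled as stage 10.5 of Nieuwkoop and Faber (early gastrula in normal development). There were 2 triple knockdown (TKD) and 2 control samples of 10 pooled embryos each. TKD embryos had received at the 1-cell stage 0.8 ng, by the labels, of a mixture of antisense oligonucleotides against tbp, tbp2 and tlf, the genes of the TATA-binding protein family; the study's methods give a separate dose for each oligonucleotide instead. Control embryos had received water and not an unrelated oligonucleotide. Both groups carry the same stage label, but the study reported that TKD embryos arrested and failed to enter gastrulation. The comparison asks which embryonic transcripts depend on this family of initiation factors when all its members are reduced together.

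The antisense oligonucleotides are shown because they are the only difference between the groups that the labels name. Each was a DNA strand with 10 modified linkages at its ends and an unmodified core, where RNase H can cut the bound mRNA. Capitals mark that core.
TBPAS3: tgcatTTCGCGCTctaag
TBP2-AS167: tcatcGTATGGAgtcat
TLF-AS93: atatcCAGTGCCacatc

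Each deposited value averages the 2 libraries of a group after their read counts were divided by size factors, and these scaled counts are here called normalized counts. The reads of each library could be solved from these means, which gave 1414476 and 2523060 reads in TKD libraries against 3436848 and 5222085 in control libraries. Libraries are called deeper and shallower within their group, since they could not be tied to the replicate numbers of the labels. The labels do not say that the samples came from separate clutches, so a p-value here covers no more than their own spread, which may be technical. As a check of the knockdown, tbp.S measured 32.9 and 19.8 normalized counts (deeper and shallower TKD library) against 57.8 and 87.7 in control embryos. Its log2 fold change was −1.32 (limma-voom adjusted p = 0.0943). Tbp.L was not called (−0.51, limma-voom adjusted p = 0.638). Tbpl2.L had 1 to 13 reads per library and was not tested, and tlf was not analysed here. The study itself reported depletion of TBP protein (western blot) and of tbp2 and tlf mRNA (quantitative PCR) in TKD embryos.

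Brachyury fell and eomes rose in TKD embryos, in each case at both homeologs, whereas the change of tbx2 did not pass the test and tbx1 had too few reads for one. A gene was tested where at least 10 reads were present in at least 2 libraries and called at an adjusted p under 0.1, the false discovery rate the study used. Of the 8 entries, 6 were tested. Of these, 2 were called lower and 2 higher, beside 14.3% of all 17026 tested genes called lower and 10.3% called higher. No tested entry had overlapping groups, with both TKD libraries below both control libraries for 4 entries and above them for 2. Such an order held for 30.7% (below) and 29.9% (above) of all tested genes, so it does not by itself set the T-box entries apart.

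**Figure D1:**
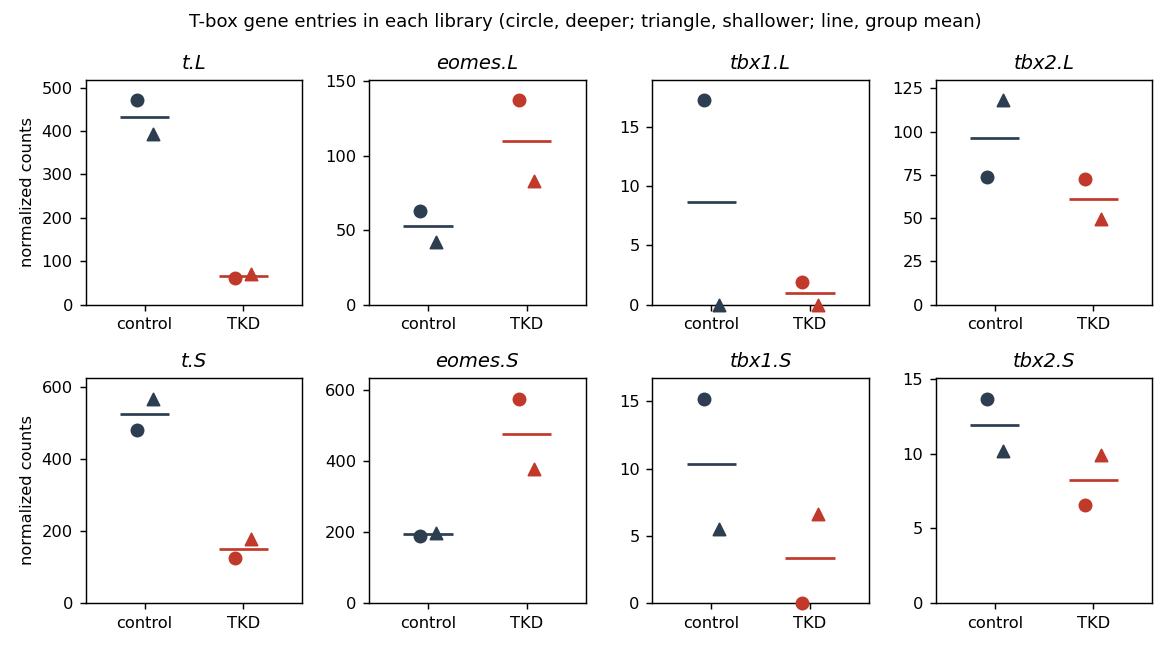
Normalized counts (vertical axes, each from 0) of the 8 T-box entries in the control and TKD libraries, with a circle for the deeper and a triangle for the shallower library and a line at the authors' group mean. The TKD points of t.L lie at 60.2 and 71.1, below control points of 392.3 and 471.1, and those of eomes.S at 378.7 and 576.4, above control points of 189.1 and 197.3.

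Brachyury t.L measured 60.2 and 71.1 normalized counts in the deeper and shallower TKD libraries and 471.1 and 392.3 in the deeper and shallower control libraries. The TKD mean of 65.6 was 15.2% of the control mean of 431.7, or 6.58-fold lower. The fitted log2 fold change was −2.73 (SE 0.28, 95% interval −3.39 to −2.08, limma-voom adjusted p = 0.00287), and 409 of the 17026 tested genes had a more negative one. These values rest on 64 and 43 TKD reads and on 929 and 501 control reads.

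The second homeolog, t.S, fell too. It measured 125.1 and 176.9 normalized counts in the TKD and 480.7 and 569.2 in the control libraries, so that the TKD mean of 151.0 was 28.8% of the control mean of 525.0. Its log2 fold change was −1.85 (SE 0.25, 95% interval −2.43 to −1.27, limma-voom adjusted p = 0.00512). With any 1 library left out, the log2 fold change was −2.86 to −2.58 for t.L and −2.06 to −1.56 for t.S. Such a fit leaves 1 library in a group, which is assumed to vary like the pair in the other group. Its p-values rest on the spread within that pair, moderated across genes. They are not used as support and, for single genes, are not given here or below. In a bulk sample, fewer cells expressing brachyury and less brachyury RNA per cell cannot be told apart, and the same holds for every gene below. A difference in developmental progress, given the reported arrest of TKD embryos, cannot be told apart from these either.

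The more abundant eomes homeolog by normalized count, eomes.S, measured 576.4 and 378.7 in the deeper and shallower TKD libraries, against 189.1 and 197.3 in control embryos. Both TKD values were above both control values, with the deeper TKD library the highest. The TKD mean of 477.5 was 2.47-fold the control mean of 193.2. The log2 fold change was 1.3 (SE 0.25, 95% interval 0.73 to 1.87, limma-voom adjusted p = 0.0142), and 1007 tested genes had a higher one. Without the deeper TKD library it was 0.97.

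The other homeolog, eomes.L, measured 137.3 and 82.7 normalized counts in the TKD and 62.9 and 42.3 in the control libraries, a 2.09-fold higher mean. Its log2 fold change of 1.07 (SE 0.36, 95% interval 0.25 to 1.89) passed the threshold at a limma-voom adjusted p of 0.0786. The size of the change varied with single libraries. The direction stayed the same, as it nearly had to with both TKD values above both control values. The log2 fold change was 0.64 without the deeper TKD library and 0.83 without the shallower control library. It was 1.36 without the shallower TKD library and 1.39 without the deeper control library. Whether the call rests on single libraries cannot be decided, since such a fit leaves 1 library in a group.

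**Figure D2:**
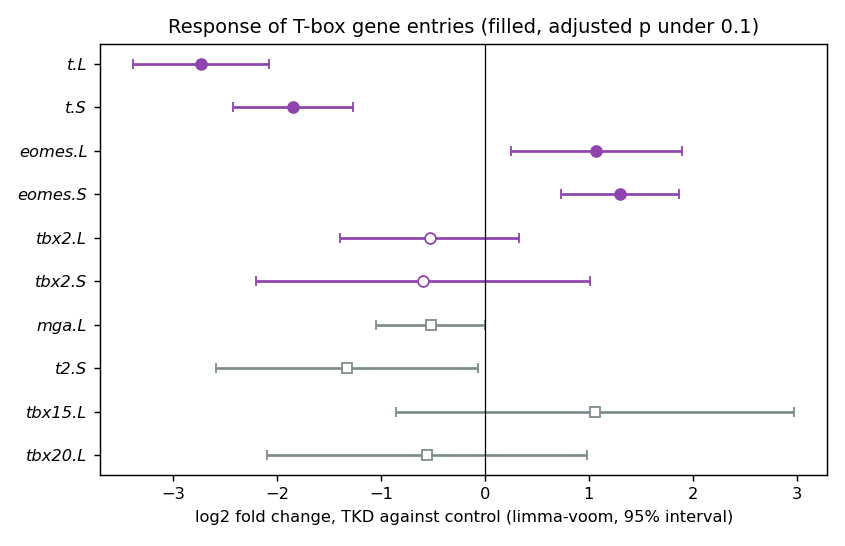
Log2 fold change of TKD against control (horizontal axis) with its 95% interval from limma-voom for the 6 tested entries (circles) and for the 4 tested entries of other T-box genes (squares), filled where the adjusted p was under 0.1. Only t.L, t.S, eomes.L and eomes.S are filled, the first pair at −2.73 and −1.85 and the second at 1.07 and 1.3.

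Adding the reads of the L and S entries removes the question of how counted reads were divided between homeologs. Whether reads that map to both were dropped or counted more than once is not given, so the sums may still depend on it. Total brachyury then measured 185.2 and 248.0 normalized counts in the TKD and 951.8 and 961.4 in the control libraries. The control libraries differed little and the TKD libraries were both far below them (log2 fold change −2.19, SE 0.21, 95% interval −2.68 to −1.70, limma-voom adjusted p = 0.00206). Total eomes measured 713.7 and 461.4 in the TKD and 252.0 and 239.6 in the control libraries (1.24, SE 0.24, 95% interval 0.69 to 1.80, limma-voom adjusted p = 0.0144). In this fit of 13464 summed genes, 15% were called lower and 10.9% higher.

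The ratio of brachyury to eomes reads within a library does not depend on how libraries are scaled, and it was reversed. In the control libraries there were 3.78 (deeper) and 4.01 (shallower) brachyury reads for each eomes read. In the TKD libraries there were 0.26 (deeper) and 0.54 (shallower). The mean log2 ratio moved from 1.96 to −1.42, a 10.4-fold lower ratio. This ratio was not among the planned comparisons. It sets a gene that fell against one that rose, so its reversal restates the changes given above. An exact two-sided permutation test of 2 against 2 libraries gave p = 0.333, the smallest p this design allows. The ratio compares reads and not molecules, since transcript length was not used.

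Brachyury accordingly took up 71.9% and 72.0% of the reads of the 8 entries in the control libraries and 18.9% and 32.0% in the deeper and shallower TKD libraries. Eomes took up 19.0% and 17.9% in the control and 72.8% and 59.5% in the TKD libraries. The remaining share, that of tbx1 and tbx2, was 9.08% and 10.0% in the control and 8.25% and 8.53% in the TKD libraries. All 8 entries together summed to 1324 and 1335 normalized counts in the control and to 979.8 and 775.6 in the TKD libraries.

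**Figure D3:**
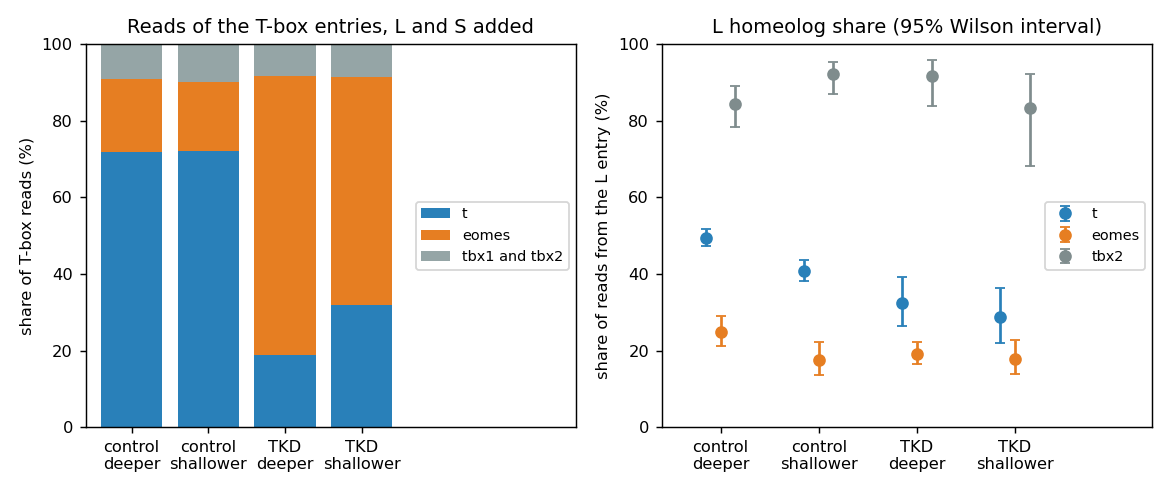
Left, the share of T-box reads (vertical axis, %) from t, eomes, and tbx1 with tbx2 in each library, L and S reads added; right, the share of reads of t, eomes and tbx2 that came from the L entry (vertical axis, %) with 95% Wilson intervals. Brachyury makes up 71.9% and 72.0% of the bars of the control and 18.9% and 32.0% of those of the TKD libraries, and its L share is lower in both TKD libraries than in both control libraries.

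The share of reads from each homeolog differed between the genes. For brachyury, the L entry held 49.5% of reads in the deeper control library (95% Wilson interval 47.2 to 51.8, counting error only) and 40.8% in the shallower one (38.1 to 43.6). It held 32.5% (26.3 to 39.3) and 28.7% (22.0 to 36.4) in the TKD libraries. The L share was thus lower in both TKD libraries, but the control libraries also differed from each other beyond their intervals. The response of L less that of S was −0.89 on the log2 scale (SE 0.35, 95% interval −1.81 to 0.016), which did not pass the test (limma adjusted p = 0.295 over 3669 homeolog pairs). Of these pairs 0% were called by limma at this threshold, and 639 had an unadjusted p under 0.05, with brachyury at 0.0528.

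For eomes the S homeolog was the main one in every library, with the L entry at 25.0% and 17.6% of reads in the control and 19.2% and 17.9% in the TKD libraries. The difference of the L and S responses was −0.23 (95% interval −1.17 to 0.72, limma adjusted p = 0.772). For tbx2 the L entry predominated, at 84.4% and 92.1% of reads in the control and 91.7% and 83.3% in the TKD libraries. Its difference of responses was −0.15 (95% interval −1.70 to 1.40, limma adjusted p = 0.915).

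The repressor gene tbx2 did not pass the test at either homeolog. Tbx2.L measured 72.4 and 49.6 normalized counts in the TKD and 74.0 and 118.2 in the control libraries (log2 fold change −0.53, SE 0.37, 95% interval −1.39 to 0.33, limma-voom adjusted p = 0.364). The deeper TKD and deeper control libraries were nearly equal. Tbx2.S was low throughout, at 6.58 and 9.92 in the TKD and 13.7 and 10.2 in the control libraries (−0.59, SE 0.70, 95% interval −2.20 to 1.01, limma-voom adjusted p = 0.597). Added up, tbx2 gave −0.54 (95% interval −1.32 to 0.23, limma-voom adjusted p = 0.302).

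Tbx1 was near the limit of detection except in 1 library. Tbx1.L had 34 reads in the deeper control library, 0 in the shallower control library and 2 and 0 in the TKD libraries. Tbx1.S had 30 and 7 reads in the control and 0 and 4 in the TKD libraries. A library with 0 reads allows up to 3 reads, which correspond to 2.82 and 4.96 normalized counts in the deeper and shallower TKD and to 1.52 and 2.35 in the control libraries. The deeper control library, at 17.2 for tbx1.L and 15.2 for tbx1.S, was thus above all others, and the groups overlapped. Neither entry met the read minimum, and a difference in tbx1 was not detectable at this depth.

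**Figure D4:**
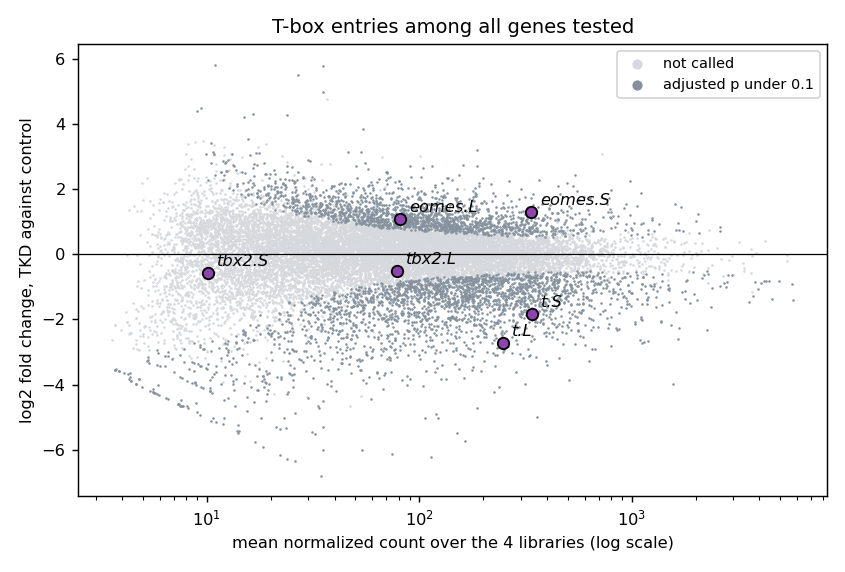
Log2 fold change of TKD against control (vertical axis) against the mean normalized count over the 4 libraries (horizontal axis, log scale) for the 17026 tested genes, darker where called, with the 6 tested T-box entries marked. The brachyury entries lie at −2.73 and −1.85 among the called genes that were lower, the eomes entries at 1.07 and 1.3 among those that were higher, and the tbx2 entries among genes not called.

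Other T-box genes were looked up from a list of 15 further symbols, of which 8 were found with 13 entries. The maternal T-box gene vegt matched no symbol and was not analysed here. Of the 13 entries, 4 were tested and limma-voom called 0, as did limma-trend, while 1 (t2.S) had an unadjusted p under 0.05. The median log2 fold change of these 4 was −0.54, beside 0.04 over all tested genes. The entries tbx18.L, tbx18.S, tbx21.S, tbx4.L and tbx4.S were at 0 in all 4 libraries. Tbr1.L, tbr1.S, tbx15.S and tbx21.L had reads but too few to test, at most 11 in a library.

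T2.S, a brachyury paralog named tbxt.2 in the later assembly Xenopus_laevis_v10.1, measured 63.0 and 18.2 normalized counts in the TKD and 124.8 and 76.7 in the control libraries. Both TKD values were below both control values, but the log2 fold change of −1.33 (SE 0.55, 95% interval −2.58 to −0.07) did not pass the test (limma-voom adjusted p = 0.137). It was −1.63 without the shallower and −0.95 without the deeper control library. It was −2.41 without the deeper and −0.68 without the shallower TKD library. Mga.L, which encodes a large protein with a T-box and a Max-binding domain, measured 177.7 and 142.2 in the TKD and 228.2 and 238.8 in the control libraries (−0.52, limma-voom adjusted p = 0.159). Tbx20.L (−0.56, limma-voom adjusted p = 0.603) and tbx15.L (1.06, limma-voom adjusted p = 0.418) had at most 58 and 11 reads in any library.

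FGF signalling, which maintains brachyury in the marginal zone, was described by a list of ligands, receptors and feedback genes. Of 30 tested entries, 6 were higher (20%), 2 lower (6.67%) and 22 not called, with a median log2 fold change of 0.18. Over all tested genes 10.3% were higher and 14.3% lower, and the median was 0.04. The 4 with the lowest adjusted p were both homeologs of spry1 and spry2, which encode feedback inhibitors of FGF signalling. Spry1.S rose from 172.4 and 174.6 normalized counts in the control to 367.7 and 388.6 in the TKD libraries (log2 fold change 1.12, limma-voom adjusted p = 0.0114), and spry1.L rose by 1.09 on the log2 scale (limma-voom adjusted p = 0.0335). Spry2.L (1.15, limma-voom adjusted p = 0.0237) and spry2.S (0.93, limma-voom adjusted p = 0.0264) rose as well. The lower entries were the receptor entry fgfr2.L (−1.23, limma-voom adjusted p = 0.0376) and frs2.S (−0.82, limma-voom adjusted p = 0.088). None of the tested ligand entries was called, with log2 fold changes of −0.33 for fgf8.L, −0.10 for fgf8.S, −0.81 for fgf3.S and 0.18 for fgf20.L. The number of higher entries was 3 without the shallower TKD library and 3 without the deeper control library, and the number of lower entries 0 without either of the TKD libraries and 1 without the deeper control library.

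Nodal signalling lies upstream of both genes, and of 22 tested entries of its list 9 were higher (40.9%), 1 lower (4.55%) and 12 not called, with a median log2 fold change of 0.52. This compares with 10.3% higher and 14.3% lower over all tested genes. The read minimum could be met in 1 group alone. The higher entry nodal2.S met it so, with 18 and 10 reads in the TKD and 0 and 3 in the control libraries. With at least 10 reads required in all 4 libraries, 5 Nodal entries were higher and 1 lower. The number of Nodal entries that passed this filter was not counted, so no share is given. The ligand entry nodal6.L rose from 22.8 and 18.8 to 126.0 and 114.1 normalized counts (log2 fold change 2.51, limma-voom adjusted p = 0.00512). The ligand entry nodal1.L rose from 6.59 and 5.48 to 40.4 and 43.0 (2.71, limma-voom adjusted p = 0.0192). Foxh1.L, which encodes a DNA-binding partner of Smad2, rose from 335.7 and 267.0 to 662.0 and 717.7 (1.19, limma-voom adjusted p = 0.00986), and the co-receptor entry tdgf1.1.L rose by 1.31 on the log2 scale (limma-voom adjusted p = 0.0155). The number of higher entries was 4 when the deeper control library was left out and 5 when either the deeper TKD or the shallower control library was, and the lower call was lost without the deeper TKD library.

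Of 71 tested entries of genes known as targets of Brachyury, Eomes or Vegt, 23 were lower (32.4%), 11 higher (15.5%) and 37 not called, with a median log2 fold change of −0.58. Over all tested genes 14.3% were lower and 10.3% higher, so that the share of higher entries in this fit is not far from that of all genes. The read minimum could be met in the 2 control libraries alone, which admits entries that are low in TKD embryos. With at least 10 reads required in all 4 libraries, 15 target entries were lower and 12 higher. Under that filter 2147 of 13808 tested genes were lower and 1890 higher. The number of target entries that passed it was not counted, so the target counts give no share to set beside these. Gsc.L, the organizer homeobox gene goosecoid, rose from 36.0 and 36.8 to 315.0 and 362.1 normalized counts (3.2, limma-voom adjusted p = 0.00267). The mesendoderm homeobox entries mix1.S (1.94, limma-voom adjusted p = 0.00287) and mix1.L (2.17, limma-voom adjusted p = 0.00322) also rose. Cdx1.S, a posterior homeobox gene, was among those that fell, from 429.0 and 380.5 to 88.4 and 104.2 (−2.09, limma-voom adjusted p = 0.00369). Without the deeper TKD library, 9 entries were lower and 5 higher.

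Of the target entries, 4 were tested and had 0 reads in both TKD libraries: hes5.1.L, meox2.L, msgn1.S and wnt11.S. Singled out here after its values were seen, msgn1.S, which encodes a factor of presomitic mesoderm, measured 44.6 and 58.7 normalized counts (88 and 75 reads) in the control libraries. Against a floor of 3 reads over the TKD group it was at least 27.9-fold lower (limma-voom adjusted p = 0.0075). The median of the list was also −0.58 with the 4 entries at their bounds. It could not have moved, since both the bounds and the fitted values of these entries lie below it.

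Goosecoid and Mix1 are known repressors of brachyury transcription, and their entries, which are also on the target list, were the only 4 of the repressor list that were tested. All 4, the L and S entries of 2 genes, were higher in TKD embryos, beside 10.3% of all tested genes. Their median log2 fold change was 2.22. The list was chosen with earlier results of these data known, so this share is no test. A link to the change of brachyury was not tested. The second goosecoid entry, gsc.S, rose from 43.6 and 57.9 to 287.7 and 183.6 normalized counts (2.27, limma-voom adjusted p = 0.00568). The repressor genes otx2 and zeb2 matched no symbol.

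Partners of T-box proteins include GATA factors, Groucho co-repressors and chromatin regulators. Of 22 tested entries, 4 were lower (18.2%), 2 higher (9.09%) and 16 not called, with a median of −0.20. These shares are near those of all tested genes, 14.3% lower and 10.3% higher. Sall1.L, which encodes a zinc finger repressor, fell from 1275.3 and 1030.3 to 402.4 and 287.7 normalized counts (−1.72, limma-voom adjusted p = 0.00511), and sall1.S fell as well (−1.68, limma-voom adjusted p = 0.0209). Gata6.S fell (−1.18, limma-voom adjusted p = 0.0132). The Groucho entries went both ways, as tle4.S rose (0.92, limma-voom adjusted p = 0.055) and tle1.S fell (−0.74, limma-voom adjusted p = 0.0997). Their homeologs tle4.L (0.80) and tle1.L (−0.60) were not called. The number of lower entries was 2 without the deeper TKD library, and the number of higher entries was 0 when either of the deeper libraries was left out and 1 when either of the shallower ones was.

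**Figure D5:**
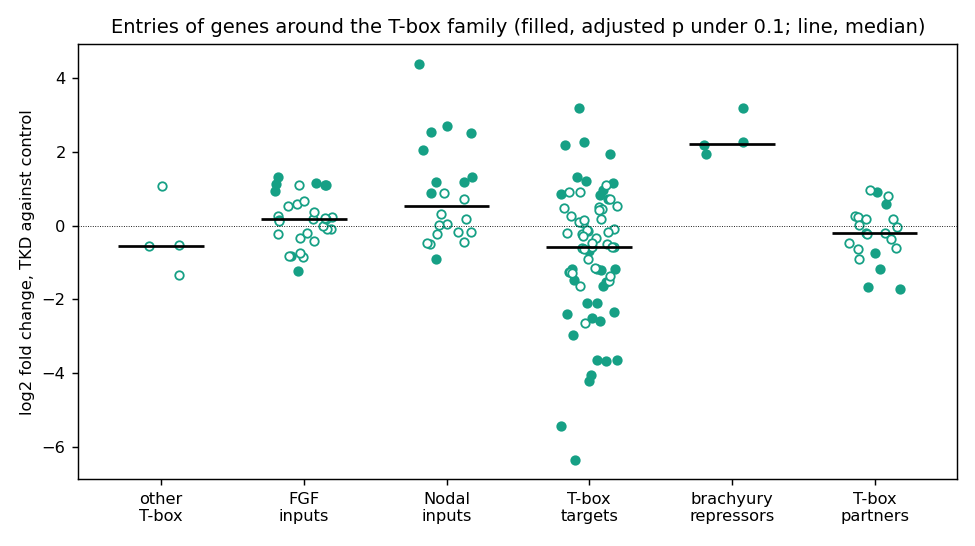
Log2 fold change of TKD against control (vertical axis) of the tested entries of the 6 gene lists, filled where the adjusted p was under 0.1, with a line at each list's median; genes on several lists appear in each, and entries at 0 in both TKD libraries are drawn at their fitted value. The target list spreads to both sides of 0, with 23 entries called lower and 11 higher, and all 4 repressor entries lie above 0.

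Some markers of germ layers also differed between the groups, and their part in the T-box changes was not tested. The counts below stand beside 14.3% of all tested genes called lower and 10.3% called higher. Of 20 tested entries of mesoderm markers other than T-box genes, 9 were lower and 2 higher, while their summed level was 2110 and 2342 normalized counts in the TKD and 2562 and 2487 in the control libraries. Of 17 organizer entries, 9 were higher and 1 lower, with sums of 6233 and 4622 in the deeper and shallower TKD and 3442 and 4544 in the control libraries. Of 16 ectoderm and epidermis entries, 14 were lower and 0 higher, with sums of 2533 and 2226 in the TKD and 7781 and 7339 in the control libraries. Of 18 endoderm entries, 6 were lower and 3 higher, of 14 neural plate entries 3 were higher and 0 lower, and of 7 germ cell entries 2 were lower and 2 higher. The higher endoderm entries (16.7%) and mesoderm entries (10.0%) are shares close to that of all genes. All 20 mesoderm entries are also on the target list. So are the higher endoderm entries, the lower entry gata6.S and the higher organizer entries of gsc, not and lhx1. The calls of these entries are thus counted in both places. In TKD embryos, msgn1.S and the ectoderm entry dlx3.L were at 0 among the tested markers.

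The genes with a pattern most like t.L were sought among 7281 entries with a mean of at least 50 normalized counts, by the Euclidean distance over the 4 libraries of log2(normalized count + 1), after subtracting each gene's own mean, so that the shape and not the level was compared. The nearest 5 were the gene model Xetrov90019656m.L (distance 0.12), heatr5a.L (0.15), slk-like.L (0.16), ncaph2.S (0.17) and the gene model Xetrov90027992m.S (0.23). The homeolog t.S ranked 261st, at 0.98. Nearest to eomes.S were not.L (0.03), a notochord homeobox gene, and stk17a.S (0.11), tmcc3.S (0.15), csnk1e.S (0.15) and dyrk2.S (0.16), with eomes.L at rank 245. Not.L measured 194.6 and 129.0 normalized counts in the TKD and 65.4 and 67.3 in the control libraries, the same order of libraries as eomes.S. With only 4 libraries in 2 groups, such a likeness mostly restates the group difference.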

How the data were processed

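RNA of 10 pooled embryos per sample was depleted of ribosomal RNA and sequenced as 75-nt single reads; the authors mapped them with STAR to JGI 9.1 with 1 mismatch allowed and compared the groups with DEseq. The program that counted reads, and whether it used strand, is not given in the sources used here. In the authors' table, the deposited signal values are group means of normalized counts. Its fold change, p-value and adjusted p-value columns hold the authors' own comparison and were not used.

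Since such a mean adds whole reads of 2 libraries, each read being worth a fixed step, the steps could be found and gave the size factors (TKD 1.063 and 0.605, control 1.972 and 1.277) and reads of each library. Reads had a single solution for 45094 (TKD) and 45088 (control) of 45098 genes, holding 94.6% and 89.2% of the signal. The recovered reads were analysed with limma-voom (limma 3.58.1, R 4.3.3) using these size factors, with Benjamini-Hochberg adjustment over 17026 genes; homeolog ratios (0.5 reads added) were analysed with limma. Recovery and fits were tested on simulated data. Other steps used matplotlib 3.10.9, SciPy 1.17.1, pandas 2.3.3 and NumPy 2.4.6 in Python 3.11.15.

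Members and lists were chosen with earlier results of these data known. Named are all member entries, every other T-box entry with a read, and up to 4 called entries per list with the lowest adjusted p. Also named are the 5 entries nearest to t.L and to eomes.S with a symbol that is no Xelaev or LOC number. This rule lets Xetrov model numbers through. Further entries are named where they bear on a count. Neighbouring genes were taken from the RefSeq gene order of Xenopus_laevis_v10.1; matching them through synonyms as well as symbols was added after the data were seen. Alternatives were other scalings, filters, pseudocounts and thresholds, and each library left out. A planned description of promoters and proteins was not made.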

Additional observations from a re-analysis of the deposited data

How the results depend on the processing

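No paired analysis was possible because the recovered libraries carry no replicate numbers. T.L and t.S kept their direction under all 12 alternatives (log2 fold change −2.86 to −2.54 and −2.06 to −1.56). The thresholds of 0.05 and 0.01 reuse the main fit, so the direction of an entry cannot turn there. For every tested T-box member both TKD libraries also lay on the same side of both control libraries. A direction kept with 1 library left out was thus nearly fixed in advance, here and for eomes and tbx2. In fits with 1 library left out, the spread comes from the group that keeps its pair, moderated across genes. Calls of the entries named in this paragraph are therefore not counted in these fits. Counts of calls in such fits for all genes and for the gene lists are given as description and not as support. T.L and t.S kept their call under every other scaling, filter, pseudocount and threshold. Eomes.S kept its direction under all 12 (0.97 to 1.58) and lost its call only at a threshold of 0.01. Eomes.L kept its direction (0.64 to 1.39). It lost its call with limma-trend on log2(normalized count + 1) (adjusted p = 0.101) and at thresholds of 0.05 and 0.01. Tbx2.L (−0.91 to −0.24) and tbx2.S (−0.81 to −0.20, 11 alternatives) kept their direction and were not called under any scaling, filter, pseudocount or threshold. The number of T-box entries called higher, 2, was 1 with limma-trend on log2(normalized count + 1), 1 at a threshold of 0.05 and 0 at 0.01.

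Scaling by library totals moved the median log2 fold change of all tested genes from 0.04 to 0.21, and all calls from 2438 lower and 1749 higher (58.2% lower) to 1983 lower and 2750 higher (41.9% lower). Leaving out the deeper control library gave 1831 lower and 784 higher (70.0% lower), the shallower TKD library 1499 and 974, and the deeper TKD library 1040 and 571.

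With library totals the lower FGF entries numbered 1. With no filter the other T-box genes had 1 lower entry, t2.S, and with at least 10 reads in all 4 libraries also 1; that filter left 5 higher Nodal entries and 15 lower target entries. At a threshold of 0.05 there were 1 lower FGF, 5 higher Nodal and 0 higher partner entries. At 0.01 there were 0 lower and 0 higher FGF, 0 lower and 2 higher Nodal, 4 lower and 4 higher target, and 1 lower and 0 higher partner entries. With each library left out the ranges were 0 to 2 lower and 3 to 5 higher for FGF, 0 to 1 and 4 to 7 for Nodal, 9 to 19 and 5 to 13 for targets, 2 to 6 and 0 to 1 for partners, and 0 to 1 lower for other T-box genes.

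Directions turned, none of them called, for the difference of the eomes homeologs without the deeper control library (0.087; range −0.54 to 0.087 with each library left out), for that of tbx2 without the shallower TKD (0.42) or shallower control library (0.39; range −0.72 to 0.42), and for tbx20.L without the deeper control library (0.16; range −1.04 to 0.16). The cause was not tested. Depth limits tbx1, tbx2.S and most other T-box genes.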

Other observations

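Genes next to the T-box entries were taken from the RefSeq gene order of the assembly Xenopus_laevis_v10.1, with 2 protein-coding genes on either side of each of the 8 entries. Of 32 neighbours, 14 were in the table and 11 were tested, of which 1 was lower, 0 higher and 10 not called by limma-voom, beside 14.3% of all tested genes called lower and 10.3% called higher. The lower one, comt.2.S, which lies near tbx1.S and is named for a methyltransferase of catechols, measured 2.82 and 0 normalized counts in the TKD and 23.8 and 13.3 in the control libraries (limma-voom adjusted p = 0.0689). The nearest gene to t.L on one side is t2.S, so in this gene order it lies beside the L copy of brachyury although its name ends in .S. Pde10a.S, near t.S, measured 154.2 and 205.1 in the TKD and 167.8 and 118.2 in the control libraries (limma-voom adjusted p = 0.522). Tbx4, the neighbour of tbx2 at both homeologs, was at 0 in every library.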
